A study of Mus musculus with 12 samples.

Results

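Checkpoint receptors and ligands are the brakes of the T cell response, and 8 genes that encode them were followed in bulk RNA of 4T1 tumors. The genes were the receptors Pdcd1 (PD-1), Ctla4, Lag3, Havcr2 (TIM-3) and Tigit, the PD-1 ligands Cd274 (PD-L1) and Pdcd1lg2 (PD-L2), and Vsir (VISTA), chosen by symbol from a table of 55401 genes. All 8 had a value above 0 in every library. The line 4T1 is a mouse mammary carcinoma of BALB/c origin, and every tumor came from this 1 line, implanted orthotopically in Balb/c mice and treated once it had reached 100 mm3. The study asked how interleukin-10 (IL-10) acts when an antibody against the receptor for colony stimulating factor 1 (CSF1R) carries it, compared with either component alone.

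Each of the 4 groups held 3 tumors with 1 library each, named here by the replicate number in the sample title. The control group (replicates 4, 5 and 7) received an isotype IgG1-Fc. The IL-10-Fc group (replicates 2, 4 and 7) received recombinant IL-10 fused to Fc, and the aCSF1R group (replicates 4, 6 and 8) received the antibody against CSF1R, a receptor on which macrophages depend for survival. The BF10 group (replicates 3, 6 and 7) received a fusion protein of the 2 agents, a mouse IgG2a antibody against mouse CSF1R with human IL-10 at its C terminus. The treatment protocol in the labels gives 6 doses and the series text gives 4, so the number of doses is uncertain. Age and sex of the hosts are not in the labels. With 1 library per tumor, each p-value below measures the spread between single tumors of 1 line.

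PD-1 is displayed by activated and exhausted T cells and dampens signalling from the T cell receptor when it binds PD-L1 or PD-L2. CTLA-4 competes with CD28 for CD80 and CD86 on antigen-presenting cells, TIGIT competes with CD226 for PVR and nectin-2, and LAG-3 binds MHC class II and FGL1. TIM-3 and VISTA are found on T cells and also on myeloid cells, where galectin-9 and CEACAM1 are named as ligands of TIM-3, and PSGL-1 (Selplg) and VSIG3 (Igsf11) of VISTA. PD-L1 is made by tumor cells and myeloid cells and is induced by interferon-gamma. In bulk RNA, fewer cells of a type and less RNA per cell cannot be told apart.

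The deposited FPKM values were rescaled so that each library summed to 1000000, here called TPM, and changes between groups are differences of mean log2(TPM + 1). A gene was called changed where its limma p-value, adjusted over 15504 tested genes by the Benjamini-Hochberg method, was below 0.05 and the change was at least 1.5-fold. The table holds no read counts, and the depth estimated from its smallest steps was 27.5 to 32 times 1000000 reads per library. By that estimate the members rested on between 8 reads (the lowest value of Pdcd1) and 7317 reads (the highest value of Vsir) per library. The FPKM columns fell into 2 sets with no sum in between. In 7 lower-sum libraries the FPKM summed to 609695 to 648413, and in 5 higher-sum libraries (BF10 replicate 6, IL-10-Fc replicate 7, aCSF1R replicate 8, control replicates 4 and 7) to 782919 to 921581. A share of 59.2% of the 15504 genes was called between these sets, and 2 of 3 control libraries were in the higher-sum set against 1 of 3 in each treated group. For this reason each comparison is given by group means alone and with the library set as a term in the fit. Against control, the tested genes had a median change of 0.32 (BF10), 0.35 (IL-10-Fc) or 0.24 (aCSF1R) on this scale, and of 0.0027 to 0.0336 with median-of-ratios scaling. The members are read against these medians. Epithelial markers of the tumor line (Krt8, Krt18, Epcam and Krt14) summed to 662 to 2224 TPM in every library. The 10 macrophage markers summed to 83.7 to 259.5 TPM in the aCSF1R group and to 1493 to 2289 TPM in the other 3 groups. BF10 replicate 3 held 16420 TPM of neutrophil markers against 426 to 3338 TPM elsewhere, and control replicate 7 held 66.5 TPM of B cell markers against 0.749 to 5.51 TPM elsewhere.

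The 8 genes lie on 6 chromosomes (GRCm38 coordinates, annotation of GENCODE M21). Cd274 (ENSMUSG00000016496, chr19:29367455-29388095, plus strand) and Pdcd1lg2 (ENSMUSG00000016498, chr19:29410919-29471161, plus strand) are neighbours 22823 bases apart. Pdcd1 (ENSMUSG00000026285, chr1:94038305-94052553, minus strand) and Ctla4 (ENSMUSG00000026011, chr1:60887000-60915832, plus strand) share chromosome 1. Havcr2 (ENSMUSG00000020399) is at chr11:46454935-46481255 on the plus strand, Tigit (ENSMUSG00000071552) at chr16:43648867-43664146 on the minus strand and Lag3 (ENSMUSG00000030124) at chr6:124904361-124911705 on the minus strand. Vsir (ENSMUSG00000020101, chr10:60346851-60372684, plus strand) lies within the span of Cdh23, which is on the opposite strand, shares no exon with it and was at 0.0651 to 2.49 TPM. An antisense transcript, AC119228.1, overlaps exons of Cd274 and was at 0.109 to 1.3 TPM. The strand setting of the counting is not stated, so reads of that pair cannot be told apart.

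The 250 bases before the transcription start are shown for 4 members: the neighbouring pair Cd274 and Pdcd1lg2, whose levels ran apart, and Havcr2 and Vsir, whose levels ran together (values below). They are from RefSeq on GRCm38.p6, on the plus strand and 5′ to 3′, at chr19:29367188-29367437 (Cd274), chr19:29410669-29410918 (Pdcd1lg2), chr11:46454681-46454930 (Havcr2) and chr10:60346601-60346850 (Vsir).
Cd274: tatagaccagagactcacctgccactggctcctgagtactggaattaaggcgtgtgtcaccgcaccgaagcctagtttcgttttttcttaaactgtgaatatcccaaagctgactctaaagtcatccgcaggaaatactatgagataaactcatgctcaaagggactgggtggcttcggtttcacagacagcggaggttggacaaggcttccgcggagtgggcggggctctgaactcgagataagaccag
Pdcd1lg2: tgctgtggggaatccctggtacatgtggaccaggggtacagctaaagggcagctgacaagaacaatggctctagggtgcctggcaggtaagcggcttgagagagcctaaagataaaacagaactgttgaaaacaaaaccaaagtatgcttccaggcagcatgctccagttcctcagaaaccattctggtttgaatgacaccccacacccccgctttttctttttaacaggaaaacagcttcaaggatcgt
Havcr2: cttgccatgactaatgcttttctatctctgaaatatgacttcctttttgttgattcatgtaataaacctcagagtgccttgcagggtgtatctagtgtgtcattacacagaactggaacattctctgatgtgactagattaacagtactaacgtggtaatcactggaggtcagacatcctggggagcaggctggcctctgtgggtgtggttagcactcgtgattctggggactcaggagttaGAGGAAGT
Vsir: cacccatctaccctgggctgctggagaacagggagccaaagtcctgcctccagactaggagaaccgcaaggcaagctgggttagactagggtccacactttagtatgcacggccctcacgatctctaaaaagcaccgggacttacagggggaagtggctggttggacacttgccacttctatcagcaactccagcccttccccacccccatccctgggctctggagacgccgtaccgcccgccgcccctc
Capitals mark the single match found for the 3 motifs searched on both strands, the letters GAGGAAGT of a PU.1-like site at bases 8 to 1 before the start of Havcr2. PU.1 is a transcription factor of myeloid cells, and these letters are in 2.44% of 32851 promoters of the same length. Neither TTCNNNGAA (the gamma-activated site, 7.02% of promoters) nor the interferon-stimulated response element (GAAA, any 2 bases, GAAA, 2.98%) was in the window of any of the 7 members with an entry, which leaves out Lag3. A match is a description of these letters and not of binding.

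Vsir was the highest member by mean TPM, at 28.2 ± 20.0 (SD, n = 12), followed by Cd274 at 20.0 ± 13.5 and Tigit at 12.2 ± 9.48. Havcr2 (7.42 ± 4.69), Ctla4 (4.69 ± 1.94) and Lag3 (3.55 ± 1.51) were intermediate, and Pdcd1 (1.63 ± 1.19) and Pdcd1lg2 (1.39 ± 0.744) were lowest. Several neighbours in that order did not differ beyond their spread: Vsir was above Cd274 in 8 of 12 libraries, Tigit above Havcr2 in 7 of 12, and Pdcd1 above Pdcd1lg2 in 6 of 12. Cd274 was above Tigit and Lag3 above Pdcd1 in 12 of 12. Vsir and Cd274 together carried 35.69% and 25.25% of the summed mean TPM of the members, while the receptor PD-1 carried 2.07%. The order differed between the library sets: in the 5 higher-sum libraries Tigit averaged 2.28 ± 0.997 TPM, below Ctla4 (4.66 ± 2.30), Havcr2 (3.58 ± 1.5) and Lag3 (2.71 ± 0.887), and in the 7 lower-sum libraries it averaged 19.3 ± 4.88 TPM, below Vsir and Cd274 alone.

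**Figure D1:**
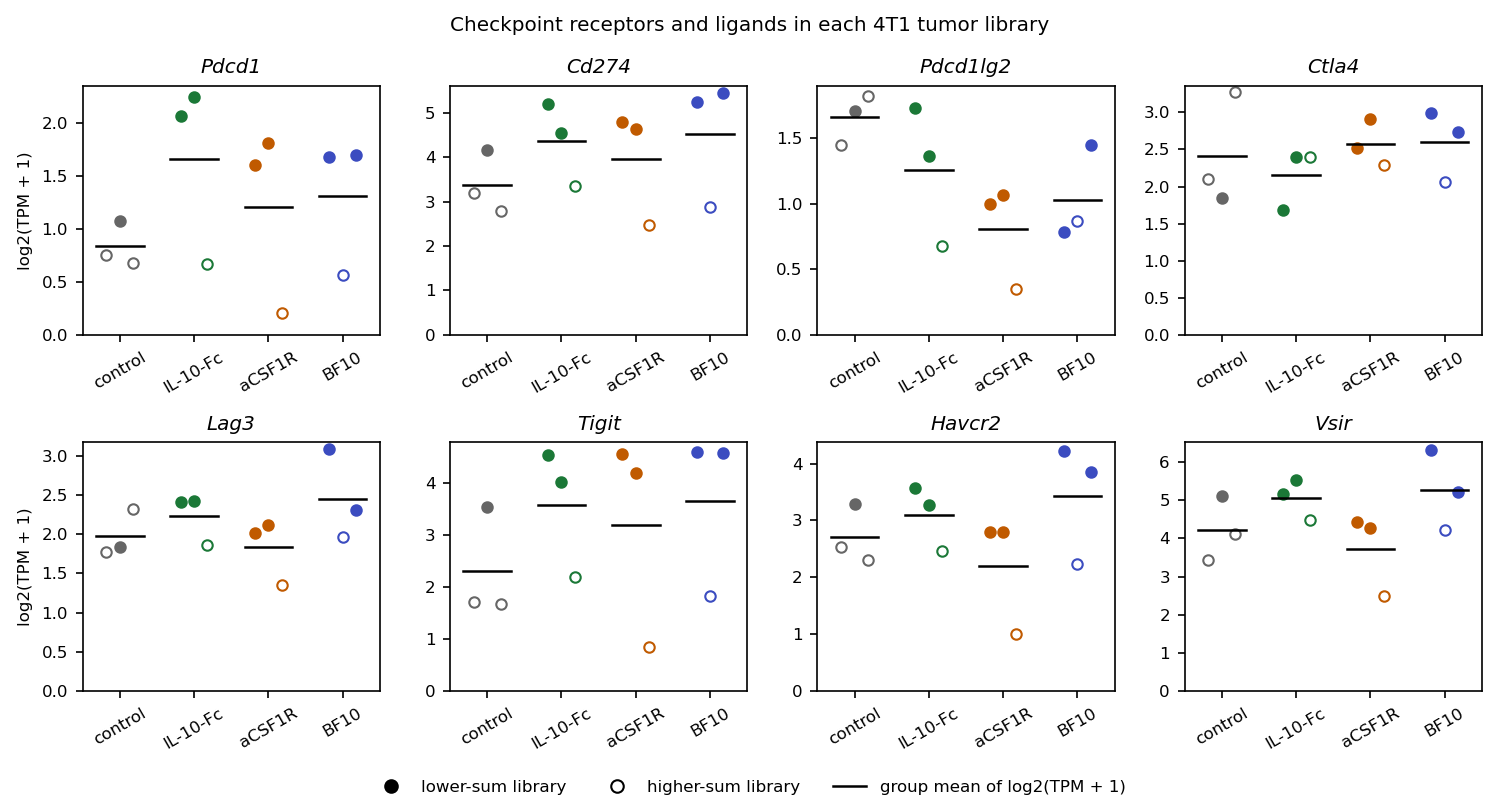
Level of each checkpoint gene in each tumor, as log2(TPM + 1), by treatment group. Points are single libraries (filled, lower-sum set; open, higher-sum set) and lines are group means. For Pdcd1, Tigit, Havcr2 and Cd274 every open point lies below every filled point, whatever the treatment.

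Cd274, the ligand by which tumor and myeloid cells engage PD-1, was at 8.18, 16.9 and 5.85 TPM in control replicates 4, 5 and 7. It was at 36.8, 6.40 and 42.9 TPM in BF10 replicates 3, 6 and 7, at 26.8, 23.7 and 4.58 TPM in aCSF1R replicates 4, 6 and 8, and at 35.9, 22.2 and 9.21 TPM in IL-10-Fc replicates 2, 4 and 7. In each treated group the higher-sum library was the low one and lay within the control range or below it, so no treated group was separate from control. The BF10 change against control was 1.15 (SE 0.82), that of IL-10-Fc 0.99 and that of aCSF1R 0.59, and none was called. Once the set entered the fit, the BF10 change was 0.54, with a 95% interval of -0.11 to 1.18.

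Pdcd1, the receptor, was at 0.684, 1.11 and 0.599 TPM in the controls and at 2.21, 0.482 and 2.25 TPM in BF10. With IL-10-Fc it was at 3.20, 3.76 and 0.588 TPM, the first 2 being the highest of all, and with aCSF1R at 2.05, 2.51 and 0.152 TPM. Again 2 libraries of each treated group lay above all controls and the third, of the higher-sum set, lay below them. Against control, IL-10-Fc differed by 0.83, BF10 by 0.48 and aCSF1R by 0.37, none past the threshold. The aCSF1R value turned to -0.0019 with the library set term.

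Pdcd1lg2, the ligand of PD-1 that dendritic cells and macrophages carry, had its highest mean in control. It was at 1.73, 2.27 and 2.54 TPM in the controls, at 0.720, 0.820 and 1.72 TPM in BF10, at 0.992, 1.10 and 0.271 TPM in aCSF1R and at 2.31, 1.57 and 0.600 TPM with IL-10-Fc. All 3 BF10 and all 3 aCSF1R libraries lay below the lowest control, the nearest being BF10 replicate 7 at 1.72 against 1.73 TPM, and IL-10-Fc overlapped control. It was the 1 member of 8 without overlap in each of these comparisons, beside 3.53% of all tested genes for BF10 and 5.28% for aCSF1R, and no member was free of overlap in BF10 against IL-10-Fc (2.13%), BF10 against aCSF1R (5.91%) or IL-10-Fc against control (6.53%). The aCSF1R change was -0.86 (95% interval -1.58 to -0.14) with an unadjusted limma p of 0.0238 and an adjusted p of 0.893. With the library set term it was -1.01 (SE 0.25), with an unadjusted p of 0.00222 and an adjusted p of 0.0891. The macrophage markers, which were lowest in aCSF1R, stood at 1766 to 1854 TPM in BF10, overlapping the control range of 1801 to 2289 TPM.

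Ctla4, the receptor that takes CD80 and CD86 from CD28, was at 3.31, 2.59 and 8.69 TPM in the controls and at 6.98, 3.17 and 5.65 TPM in BF10. With IL-10-Fc it was at 2.21, 4.27 and 4.25 TPM and with aCSF1R at 4.71, 6.53 and 3.87 TPM. The highest value of all was thus a control, replicate 7, the library with 66.5 TPM of B cell markers. Its T cell receptor chains (Cd3d, Cd3e, Cd3g and Cd247) summed to 26.5 TPM, below BF10 replicate 3 (33.1 TPM) and IL-10-Fc replicate 4 (30.2 TPM). The part of these cells in its Ctla4 level was not tested. Changes against control were between -0.25 and 0.19. Between the library sets Ctla4 differed by -0.01 on the TPM scale (adjusted p = 0.982) and by 0.70 with median-of-ratios scaling.

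Tigit, a receptor of T and NK cells, was at 2.30, 10.8 and 2.20 TPM in the controls. It was at 23.3, 2.54 and 22.9 TPM in BF10, at 22.8, 17.4 and 0.792 TPM in aCSF1R and at 22.4, 15.4 and 3.58 TPM with IL-10-Fc. The lower-sum libraries ran from 10.8 to 23.3 TPM and the higher-sum ones from 0.792 to 3.58 TPM, with no overlap. Within the lower-sum set all 6 treated libraries lay above the 1 control, and within the higher-sum set aCSF1R lay below both controls. The BF10 change was 1.35 (SE 1.10) by group means and 0.50 with the library set term.

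Lag3, a receptor of activated T and NK cells, was at 2.41, 2.57 and 4.01 TPM in the controls, at 7.49, 2.89 and 3.96 TPM in BF10, at 3.06, 3.35 and 1.56 TPM in aCSF1R and at 4.33, 4.36 and 2.64 TPM with IL-10-Fc. The highest library was BF10 replicate 3, which also had the highest sum of T cell receptor chains (33.1 TPM) and of neutrophil markers. BF10 against aCSF1R was 0.62 (SE 0.27) with the library set term, with an unadjusted limma p of 0.0435 and an adjusted p of 0.424.

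Havcr2, the receptor TIM-3, was at 4.76, 8.72 and 3.92 TPM in the controls and at 10.9, 8.65 and 4.48 TPM with IL-10-Fc. It was at 17.6, 3.71 and 13.5 TPM in BF10 and at 5.92, 5.99 and 0.998 TPM in aCSF1R. The 2 lower-sum BF10 libraries were the highest of all and the higher-sum aCSF1R library the lowest of all. Vsir, the receptor and ligand VISTA, was at 9.90, 33.6 and 16.2 TPM in the controls, at 79.5, 17.6 and 36.6 TPM in BF10, at 20.7, 18.3 and 4.63 TPM in aCSF1R and at 35.1, 45.0 and 21.3 TPM with IL-10-Fc. Its highest value was in BF10 replicate 3 and its lowest in aCSF1R replicate 8, and by group means BF10 and aCSF1R overlapped for both genes.

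By group means, limma called 0 of 8 members in BF10 against control (background 0.0% of all tested genes), 0 in IL-10-Fc against control (0.00645%), 0 in aCSF1R against control (0.568%), 0 in BF10 against IL-10-Fc (0.0%) and 0 in BF10 against aCSF1R (0.735%). At an unadjusted p below 0.05 the counts were 0, 0, 1, 0 and 1. The last was Vsir in BF10 against aCSF1R, by 1.53 (SE 0.66), with a limma p of 0.0423 and an adjusted p of 1. The F test over the 4 groups called 0 members (background 0.522%), with an adjusted p of 0.991 for each. The direction was upward for 7 of 8 members in BF10 and 6 of 8 in IL-10-Fc against control, with median changes of 0.61 in both, beside medians of 0.32 and 0.35 over all tested genes. For aCSF1R 4 of 8 were above 0, with a median of 0.01 beside 0.24. The standard errors were 0.33 to 1.10, wide beside the 1.5-fold threshold. These comparisons share their control libraries.

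**Figure D2:**
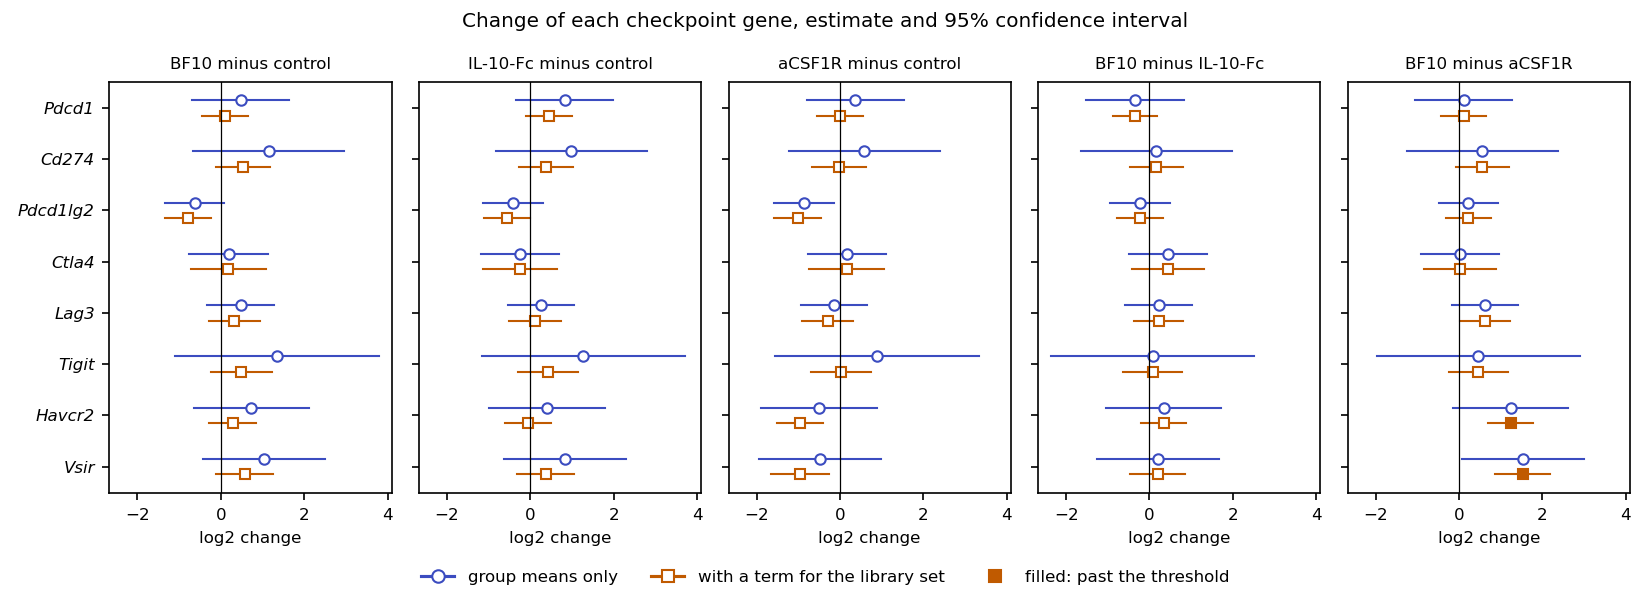
Change in log2(TPM + 1) of each checkpoint gene in 5 comparisons, with 95% intervals. Circles are fits of the group means alone and squares fits with the library set as a term; filled symbols passed the threshold. Only the squares of Havcr2 and Vsir in BF10 against aCSF1R are filled.

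The library sets differed in 5 of 8 members. With treatment in the fit, Tigit (-2.57, adjusted p = 1.9e-05), Cd274 (-1.85, adjusted p = 3.2e-05), Vsir (-1.41), Havcr2 (-1.36) and Pdcd1 (-1.12) were lower in the higher-sum set, beside a background of 54.0% of tested genes called lower and 59.2% called in either direction. Pdcd1lg2 (-0.47), Lag3 (-0.45) and Ctla4 (-0.01) were not called. The median over all tested genes was -0.68 between the sets, lower than each of these last values. Cd274 ran from 16.9 to 42.9 TPM in lower-sum and 4.58 to 9.21 TPM in higher-sum libraries, Pdcd1 from 1.11 to 3.76 and 0.152 to 0.684 TPM, and Havcr2 from 5.92 to 17.6 and 0.998 to 4.76 TPM. Together with Tigit these were 4 of 8 members whose sets did not overlap, beside 48.8% of all tested genes. What separates the sets is not given in the labels. With median-of-ratios scaling Ctla4 and Lag3 turned to 0.70 and 0.21 between the sets, while Tigit (-1.89), Cd274 (-1.04), Pdcd1 (-0.73), Havcr2 (-0.66), Vsir (-0.59) and Pdcd1lg2 (-0.03) stayed below 0.

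With the library set as a term, Havcr2 and Vsir were higher in BF10 than in aCSF1R tumors, 2 of 8 members beside 2.77% of all tested genes called higher in BF10 and 2.82% called in either direction. Havcr2 differed by 1.24 (SE 0.24, 95% interval 0.70 to 1.78), which is 2.36-fold on the log2(TPM + 1) scale, with a limma adjusted p of 0.0180. Vsir differed by 1.53 (SE 0.30, 95% interval 0.86 to 2.19), or 2.88-fold, with an adjusted p of 0.0182. Both differences had the same direction within each set, in the libraries that this fit used, which is not a separate test. Each group had 2 lower-sum libraries and 1 higher-sum library. Havcr2 was at 13.5 to 17.6 TPM in BF10 against 5.92 to 5.99 TPM in aCSF1R among lower-sum libraries. Among higher-sum ones it was at 3.71 against 0.998 TPM. Vsir was at 36.6 to 79.5 against 18.3 to 20.7 TPM and at 17.6 against 4.63 TPM. BF10 lay above aCSF1R in both sets also for Cd274, Lag3 and Tigit, 5 of 8 members in all, beside 13.5% of tested genes. The calls rested on few tumors. With the set term, Havcr2 was no longer called without BF10 replicate 3 (1.07, adjusted p = 0.0878), BF10 replicate 7 (1.25, adjusted p = 0.0517), aCSF1R replicate 6 (1.32, adjusted p = 0.0507) or aCSF1R replicate 8 (1.04, adjusted p = 0.0894). Vsir was not called without BF10 replicate 3 (1.21, adjusted p = 0.0653), BF10 replicate 6 (1.60, adjusted p = 0.0586), aCSF1R replicate 6 (1.56, adjusted p = 0.0671) or aCSF1R replicate 8 (1.33, adjusted p = 0.0977).

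Against control, the same fit called 0 of 8 members for BF10 (background 0.00645%), 0 for IL-10-Fc (0.0258%) and 0 for aCSF1R (2.01%), and by the F test it called 0 (2.12%). Likewise 0 members differed past the threshold between BF10 and IL-10-Fc tumors (0.0%). At an unadjusted limma p below 0.05 there was 1 member for BF10, 0 for IL-10-Fc, 3 for aCSF1R and 0 between BF10 and IL-10-Fc. For BF10 it was Pdcd1lg2, at -0.79 with an unadjusted p of 0.0105 and an adjusted p of 0.993. The 3 in aCSF1R were Pdcd1lg2, Havcr2 (-0.96, adjusted p = 0.110) and Vsir (-0.96, adjusted p = 0.270). These 3 members were below control within both sets of libraries, beside 19.5% of tested genes. Tigit and Vsir were the 2 of 8 members for which BF10 was above control within both sets, beside 14.1%.

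The macrophage markers, like Havcr2 and Vsir, were higher on average in BF10 than in aCSF1R. The 10 markers were Csf1r, Adgre1, C1qa, C1qb, C1qc, Mrc1, Cd68, Msr1, Mertk and Fcgr1, and none was at 0 in any library. By group means 7 were called higher in BF10 than in aCSF1R, where 0.735% of all tested genes were called in either direction. With the library set term 10 were called higher, beside 2.77% of all tested genes. The markers summed to 1766 to 1854 TPM in BF10 and to 83.7 to 259.5 TPM in aCSF1R. Single libraries did not all follow this order. BF10 replicate 6 had the highest marker sum of its group, 1854 TPM, and lay below aCSF1R replicates 4 and 6 for both Havcr2 and Vsir. A relative level was taken as log2(TPM + 1) of a gene less the mean log2(TPM + 1) of the 10 markers. For Havcr2 it averaged -1.22 ± 0.37 (SD, n = 3) in aCSF1R, -2.95 ± 0.78 in BF10, -3.45 ± 0.41 in control and -3.11 ± 0.40 with IL-10-Fc. For Vsir the averages were 0.32 ± 0.35, -1.12 ± 0.76, -1.93 ± 0.64 and -1.15 ± 0.33. All 8 members were highest in aCSF1R on this relative level, whose reference was lowest there, so the order of the groups is not particular to these 2 genes. Neutrophil markers were also high in BF10 replicate 3, where Vsir was highest. The part of either cell type in the level of these genes was not tested.

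**Figure D3:**
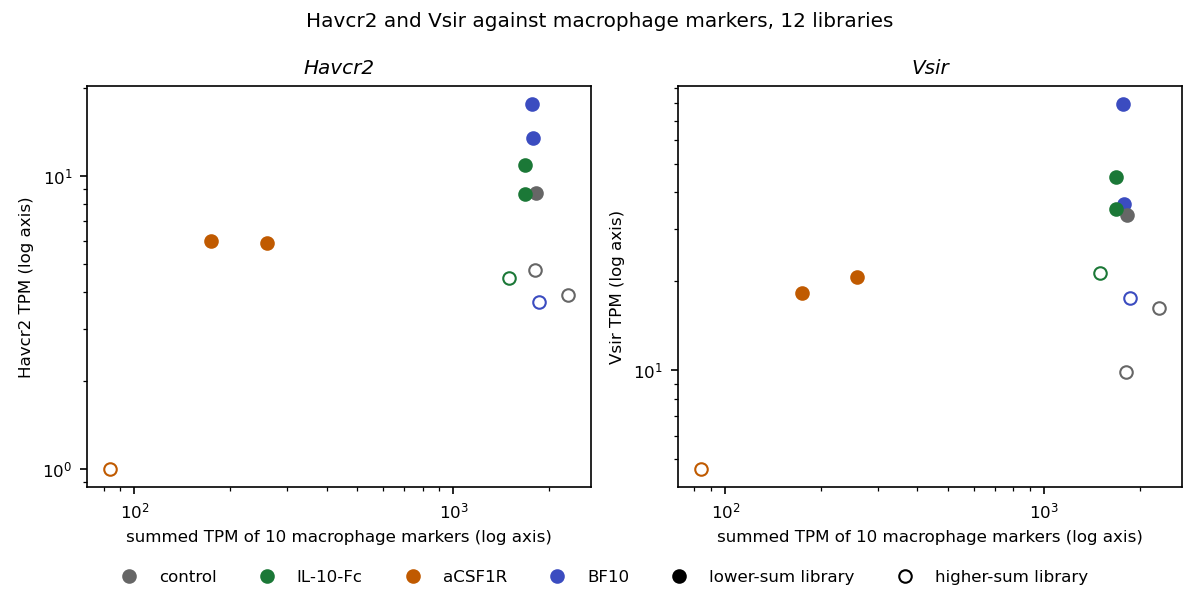
Havcr2 and Vsir (TPM) against the summed TPM of 10 macrophage markers in each of 12 libraries, both axes logarithmic. The aCSF1R libraries stand apart at 83.7 to 259.5 TPM of macrophage markers, while both genes also vary several-fold among libraries with near-equal marker sums.

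The T cell receptor chains (Cd3d, Cd3e, Cd3g and Cd247) summed to 12.5 to 26.5 TPM in control, 10.8 to 33.1 TPM in BF10, 8.39 to 24.1 TPM in aCSF1R and 17.8 to 30.2 TPM with IL-10-Fc, and limma called 0 of 4 in each of the 5 comparisons, with 0 at an unadjusted p below 0.05. Relative levels were again log2(TPM + 1) of a gene, here less the mean log2(TPM + 1) of the 4 chains. Pdcd1 averaged -1.22 ± 0.26 (SD, n = 3) in BF10, -1.01 ± 0.19 in aCSF1R, -1.39 ± 0.44 in control and -1.08 ± 0.54 with IL-10-Fc. Lag3 averaged -0.09 ± 0.31 in BF10 and -0.25 ± 0.15 in control. Tigit averaged 1.13 in BF10, 0.98 in aCSF1R, 0.85 with IL-10-Fc and 0.09 in control, where 2 of 3 libraries were of the higher-sum set. These relative levels are descriptions and carry no test.

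The binding partners of the members gave 1 call among 8 tested by group means, in aCSF1R against control, where 0.568% of all tested genes were called. Cd86, a ligand of CTLA-4 and CD28 on antigen-presenting cells, was at 16.4, 10.9 and 24.0 TPM in the controls and at 4.10, 3.72 and 3.65 TPM in aCSF1R, and it was lower there by -1.84 (SE 0.30, adjusted p = 0.0171). It was at 11.8 to 12.5 TPM in BF10 and 9.30 to 12.9 TPM in IL-10-Fc. The Cd86 call was lost without aCSF1R replicate 4, aCSF1R replicate 6, control replicate 4 or control replicate 7. Cd80, the other ligand, was at 1.94, 1.61 and 0.34 TPM in aCSF1R against 4.14, 2.81 and 3.12 TPM in BF10, with no overlap, and the difference of 0.99 had an adjusted p of 0.568. Pvr, the ligand of TIGIT, was at 26.7, 8.01 and 35.5 TPM in BF10, 46.4, 39.4 and 5.51 TPM in aCSF1R and 7.70, 31.0 and 6.43 TPM in control, following the library sets as Tigit did. Nectin2 ran from 6.17 to 45.1 TPM and Cd226, the activating receptor for the same ligands, from 0.683 to 2.20 TPM, with no call in any comparison. Lgals9 (galectin-9) was abundant, at 123.5 to 142.2 TPM in lower-sum and 70.8 to 120.3 TPM in higher-sum libraries. Between the sets it differed by -0.48 (limma adjusted p = 0.0025), short of the 1.5-fold threshold. Ceacam1 was at 16.4 TPM in BF10 replicate 3 and at 0.20 to 3.08 TPM in the other libraries. Selplg was at 79.9, 10.6 and 30.3 TPM in BF10 and at 16.8, 13.9 and 2.43 TPM in aCSF1R. Fgl1 and Igsf11, at no more than 0.20 and 0.13 TPM, fell below the filter of 1 TPM in 3 libraries and were not tested.

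**Figure D4:**
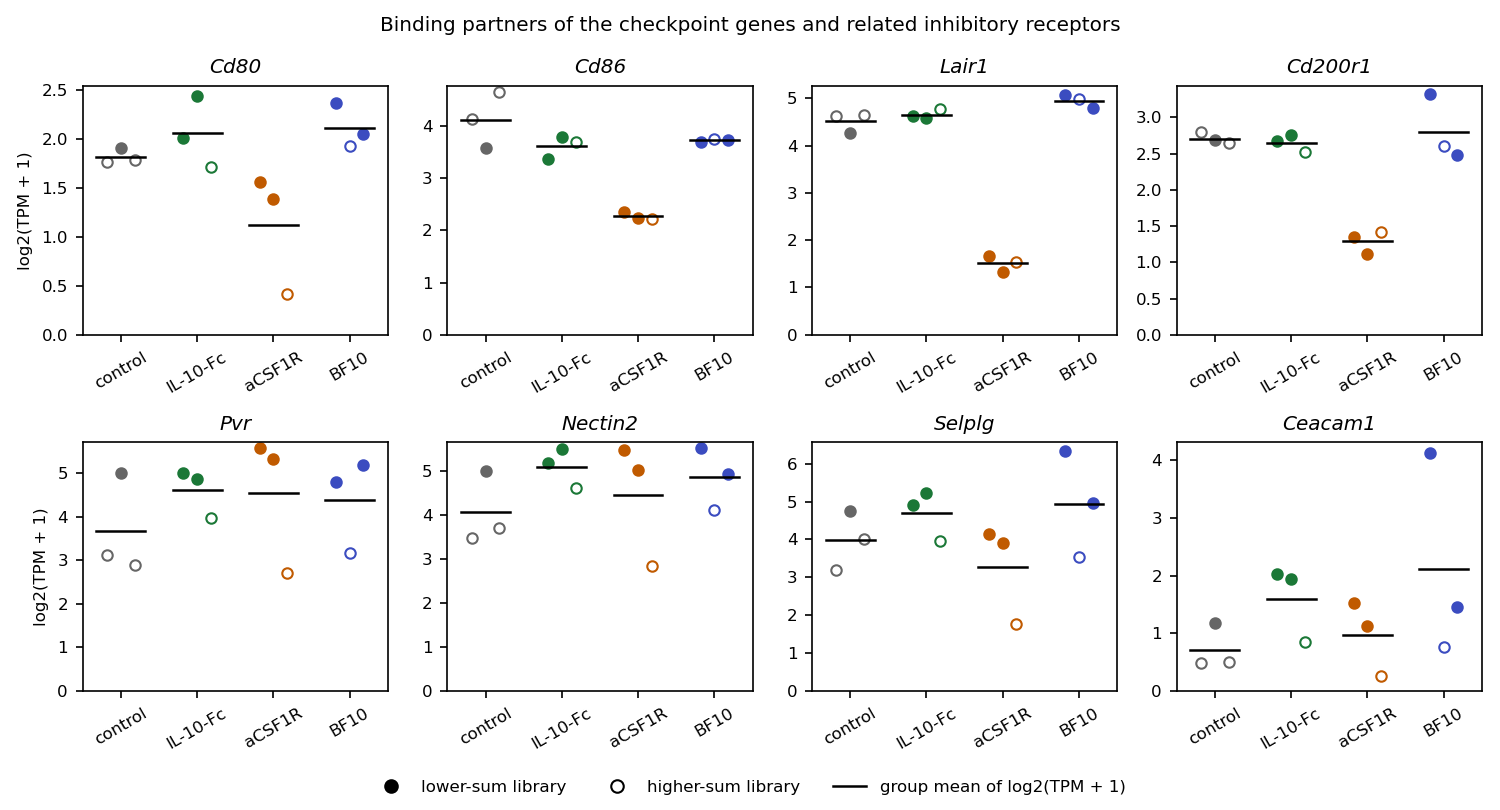
Level of 8 binding partners and related inhibitory receptors in each tumor, as log2(TPM + 1), with library sets and group means marked as for the checkpoint genes. Lair1, Cd200r1 and Cd86 are low in all 3 aCSF1R libraries of either set, whereas Pvr and Nectin2 are lower in the open, higher-sum libraries. Selplg is lowest in aCSF1R within each set, and within each group it is lower in the open libraries.

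In a wider list of 36 co-inhibitory receptors, ligands and partners, which holds the binding partners above, 35 were found and 30 tested. Of these, 2 were lower in aCSF1R than in control (Lair1, and Cd86 as given above; background 0.568%) and 2 higher in BF10 than in aCSF1R (Lair1 and Cd200r1; background 0.735%), with 6 and 7 at an unadjusted p below 0.05, and limma called 0 in the other 3 comparisons, where 0 reached that p. Their median changes were -0.12 and 0.21 beside 0.24 and 0.06 over all tested genes. Lair1, an inhibitory receptor for collagen on leukocytes, was at 1.52 to 2.19 TPM in aCSF1R against 18.4 to 23.9 TPM in control, 26.8 to 32.7 TPM in BF10 and 22.9 to 26.3 TPM in IL-10-Fc. It was lower in aCSF1R than in control by -3.0 (SE 0.23, adjusted p = 0.000212) and higher in BF10 than in aCSF1R by 3.43 (adjusted p = 0.000127), and both calls were kept without each library in turn. Cd200r1, the myeloid receptor for CD200, was at 1.16 to 1.68 TPM in aCSF1R and 4.57 to 8.99 TPM in BF10, a difference of 1.5 (SE 0.28, adjusted p = 0.0360) that was lost in all 12 fits leaving out 1 library. With the library set term 4 genes were lower in aCSF1R than in control (Lair1, Cd86, Cd200r1 and Cd48; background 2.01%) and 8 higher in BF10 than in aCSF1R (background 2.82%), among them Sirpa (1.59), Selplg (1.67) and Cd80 (0.99). Macrophage markers were lowest in the same aCSF1R libraries, and their part in these values was not tested.

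Of 17 costimulatory receptors and ligands, 16 were found and 10 tested, and limma called 0 in any comparison by group means, with 0, 1, 1, 0 and 2 at an unadjusted p below 0.05 in the order given above. The library set term added 1 call, Slamf6, a receptor of T cells and of some other lymphocytes. It was lower in aCSF1R than in control by -1.65 (limma adjusted p = 0.0334), where 2.01% of all tested genes were called. Slamf6 was at 6.08, 4.49 and 14.3 TPM in control replicates 4, 5 and 7 and at 2.26, 1.72 and 1.17 TPM in aCSF1R replicates 4, 6 and 8. Control replicate 7 was also the library highest in B cell markers. Interferon-gamma, its receptor, its signalling genes and its chemokine targets, the pathway that induces Cd274, gave 0 calls among 11 tested genes in the 5 comparisons by limma. By group means, 10 of these 11 were above 0 in both BF10 and IL-10-Fc against control, with medians of 0.82 and 0.94 beside 0.32 and 0.35 over all tested genes, and 4 in each had an unadjusted p below 0.05. For aCSF1R the median was 0.38 beside 0.24, with 0 at that p. The 11 genes summed to 751 to 1166 TPM in lower-sum libraries. In the higher-sum libraries, which include control replicates 4 and 7, the sum was 532 to 921 TPM.

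The genes closest to each member in pattern were sought as the 3 with the highest Pearson r of log2(TPM + 1) across the 12 libraries after the mean of each library set had been taken out. For Vsir these were Rac2 (r = 0.984), Ttc7 (0.983) and Prex1 (0.983), and for Havcr2 Csf2ra (0.960), Gm11427 (0.958) and Lcp1 (0.956). Rac2 and Lcp1 are genes of blood cells, and Csf2ra encodes a receptor chain for GM-CSF on myeloid cells. For Lag3 they were Atp2a3 (0.950), Cd2 (0.938) and Ltb (0.933), and for Ctla4 Icos (0.926), Gm6257 (0.852) and Gm10045 (0.848), where Cd2 and Icos are receptors of T cells. Pdcd1 was followed by Mrpl23 (0.862), Cd8a (0.861) and Hbb-bt (0.859), and Pdcd1lg2 by Rpl21-ps8 (0.902), Lilra5 (0.886) and Cd83 (0.871). For Tigit the genes were Pfkfb3 (0.936), Neurl3 (0.925) and Irf2 (0.924), and for Cd274 Gm3756 (0.893), Irak2 (0.877) and Tigit itself (0.862). Between members, Havcr2 and Vsir had an r of 0.855 and Lag3 and Vsir of 0.796, while the neighbouring genes Cd274 and Pdcd1lg2 had an r of -0.021 and Pdcd1 and Ctla4 of 0.114. Without taking out the set means, Cd274 and Tigit had an r of 0.981, and Havcr2 and Vsir of 0.933. The points share treatment groups, and single libraries that stand apart weigh on each r, so these values describe these 12 tumors.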

How the data were processed

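RNA of 12 tumors was sequenced by the authors as stranded libraries of polyadenylated RNA and aligned to mm10 with the annotation GRCm38.101, and the submitters' processing notes name STAR 2.7.5a, RSEM 1.3.3 and DESeq2 1.28.0 without roles. The authors deposited FPKM values for 55401 genes, of which 34194 were above 0 in a library, and all 12 columns matched a sample by its title (0 columns left over). The authors' tables of DESeq2 comparisons (log2 fold changes, errors and p-values) were not used. FPKM were rescaled to TPM, genes with at least 1 TPM in at least 3 libraries were kept (15504), and log2(TPM + 1) was fitted over the 12 libraries by limma 3.58.1 (two-sided, eBayes with a mean-variance trend) in R 4.3.3, without a replicate block. Calls needed a Benjamini-Hochberg adjusted p below 0.05 and a 1.5-fold change, and the F test the adjusted p alone. The library set term separated FPKM sums above 700000 from lower ones. Other steps used Python 3.11.15 with pandas 2.3.3, numpy 2.4.6 and matplotlib 3.10.9, and the fit was tested on simulated data.

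The members and gene lists were chosen with earlier results of these data known. Named were the 8 members, their 10 binding partners, up to 5 called genes per comparison from the partner and costimulatory lists, and the 3 genes most like each member. Marker lists of cell types and of interferon-gamma signalling stood beside them. Alternatives were unrescaled FPKM, median-of-ratios scaling, a pseudocount of 0.1, no filter, the library set term, lower-sum libraries alone, the 2 groups compared alone, a replicate block and leaving out each library. Combining the set term with other scaling or with leaving out libraries was chosen after seeing the data. Without read counts no counting interval could be given. Titles share 7 pairs of replicate numbers across groups, and 2 of the 7 pairs deviated together. In both of these the libraries were of the same library set, and each other pair crossed the sets. This check therefore could not decide whether the numbers pair the tumors, and they were not taken to do so.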

Additional observations from a re-analysis of the deposited data

How the results depend on the processing

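By group means, 0 of 8 members were called in each of 20 settings, and the set term called 2 in BF10 against aCSF1R, also with median-of-ratios scaling (2). When libraries were left out, counts ran from 0 to 2 for BF10 against aCSF1R, 0 to 1 for aCSF1R against control (Pdcd1lg2, with the set term and without BF10 replicate 3) and 0 to 1 by the F test (Vsir, with the set term and without BF10 replicate 7). Of 322 member changes under alternatives other than leaving out a single library, which include fits of the lower-sum libraries alone and of the 2 groups compared alone, 296 kept their direction and side of the threshold and 22 turned direction. Against control, for BF10, Ctla4 turned to -0.16 with median-of-ratios scaling and -0.40 with the replicate block. For IL-10-Fc, Ctla4 turned to 0.20 in lower-sum libraries, Lag3 to -0.11 with median-of-ratios scaling and Havcr2 to -0.0562 with the set term. For aCSF1R, the set term turned Pdcd1 to -0.0019 and Cd274 to -0.0253, unrescaled FPKM turned Ctla4 to -0.0164 and median-of-ratios scaling to -0.0592, lower-sum libraries turned Lag3 to 0.23, and the replicate block turned Lag3 to 0.11, Havcr2 to 0.76 and Vsir to 0.88. In BF10 against IL-10-Fc, the replicate block turned Pdcd1 to 0.0068, Pdcd1lg2 to 0.26 and Ctla4 to -0.10. In BF10 against aCSF1R, Pdcd1 turned to -0.0189 in lower-sum libraries, Ctla4 to -0.10 with median-of-ratios scaling, and the replicate block turned Pdcd1 to -0.38, Cd274 to -0.46, Ctla4 to -0.66 and Tigit to -1.05. The replicate block left 2 residual degrees of freedom and called 0 members, and same-numbered libraries had r of -0.663 to 0.417. The cause of these turns was not tested.

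Leaving out 1 library turned 32 of 480 changes. The ranges were, for BF10 against control, Ctla4 -0.10 to 0.62, and for IL-10-Fc against control, Ctla4 -0.53 to 0.18. For aCSF1R against control they were Ctla4 -0.12 to 0.60, Lag3 -0.29 to 0.0923, Havcr2 -0.81 to 0.10 and Vsir -0.87 to 0.13. For BF10 against IL-10-Fc they were Pdcd1 -0.85 to 0.0273, Cd274 -0.34 to 0.98, Pdcd1lg2 -0.51 to 0.0095, Lag3 -0.10 to 0.46, Havcr2 -0.0503 to 0.94, Tigit -0.62 to 1.00 and Vsir -0.34 to 0.72. For BF10 against aCSF1R they were Pdcd1 -0.39 to 0.48, Cd274 -0.18 to 1.38, Pdcd1lg2 -0.0014 to 0.36, Ctla4 -0.17 to 0.29 and Tigit -0.72 to 1.39. Partner genes called in aCSF1R against control were 1 with median-of-ratios scaling, 4 with the set term, 1 in lower-sum libraries and 1 to 3 without a library. In BF10 against aCSF1R they were 1 with median-of-ratios scaling, 1 without a filter, 8 with the set term and 1 to 2 without a library. Costimulatory genes called in aCSF1R against control were 1 with the set term. Among 240 levels relative to the mean log2 of marker genes 5 moved, all of Pdcd1lg2 with a pseudocount of 0.1.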

Other observations

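The sum of regulatory T cell markers (Foxp3, Il2ra, Ikzf2 and Ccr8) was 4.12 to 6.69 TPM in the 7 lower-sum libraries and 1.82 to 2.64 TPM in the 5 higher-sum ones, and limma called 0 of 3 tested markers in each comparison, with 0 at an unadjusted p below 0.05. The transcription factors of exhausted T cells (Tox, Eomes, Nr4a1, Nr4a2, Nr4a3, Batf and Prdm1) summed to 27.7 to 69.0 TPM in lower-sum and 8.84 to 19.6 TPM in higher-sum libraries. Neither sum overlapped between the sets, as was the case in this direction for 48.8% of all tested genes. Taken singly, Foxp3 and Ikzf2 did overlap, as did Eomes, Nr4a3, Batf and Prdm1. In BF10 replicate 3, Nr4a1 alone made up 41.8 of the 69.0 TPM. Of the transcription factors, 6 of 6 tested genes were above 0 in BF10 against control, with a median of 0.50 beside 0.32 over all tested genes. By limma 0 of these 6 were called, with 0 at an unadjusted p below 0.05 in that comparison. The CD8 genes Cd8a and Cd8b1 summed to 7.80 to 13.6 TPM in IL-10-Fc, 5.03 to 11.4 TPM in BF10, 4.59 to 9.69 TPM in aCSF1R and 5.18 to 7.38 TPM in control. The IL-10-Fc sums thus lay above control without overlap (either way, 6.53% of all tested genes did not overlap in this comparison). Taken singly, Cd8a did not overlap between these groups and Cd8b1 did. Neither gene was called (0 at an unadjusted limma p below 0.05).

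Dendritic cell markers summed to 3.61 to 14.4 TPM in aCSF1R and 8.48 to 18.3 TPM in control. BF10 held 9.85 to 28.0 TPM and IL-10-Fc 13.3 to 28.0 TPM, and 0 of 5 tested markers were called by limma in each comparison, with 1 at an unadjusted p below 0.05 in BF10 against aCSF1R and 0 in the others. NK cell markers summed to 13.97 to 18.4 TPM in IL-10-Fc and 21.2 to 32.8 TPM in control, with no overlap. Of single tested genes, 6.53% did not overlap in this comparison. Among the markers Ncr1 did not, at 0.911 to 2.81 TPM in IL-10-Fc against 4.72 to 6.05 TPM in control. Klrb1c, Klrk1, Prf1 and Eomes taken singly did overlap. The sums were 15.9 to 26.0 TPM in BF10 and 14.7 to 34.3 TPM in aCSF1R, which overlapped. Of the 5 markers 1 was called by limma, higher in BF10 than in aCSF1R (adjusted p = 0.0445; background 0.735%). It was Klrk1, the activating receptor NKG2D, named after its values were seen, at 8.10 to 11.8 TPM in BF10 and 2.80 to 3.40 TPM in aCSF1R. Prf1 was at 3.74, 1.33 and 7.70 TPM in BF10 and 7.84, 26.3 and 2.21 TPM in aCSF1R, and Ncr1 reached its highest value, 11.6 TPM, in aCSF1R replicate 8.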
